A study of Mus musculus with 6 samples.

Results

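The endothelial cell markers were 10 genes that are used to recognise the cells lining blood vessels: Pecam1, Cdh5, Cldn5, Kdr, Flt1, Tek, Tie1, Emcn, Vwf and Egfl7. They were taken by gene name from a table of 57010 genes, and all 10 were found and passed the expression filter, as did 11375 genes in all. RNA sequencing had been run on 6 libraries of mouse gastrocnemius, the large calf muscle. All mice were of the NSG strain (NOD/SCID/IL2Rγ-null), which lacks mature lymphocytes, and all carried a subcutaneous tumour on the left flank, grown from cells labelled MDA-MB-231/Rab27a KD. MDA-MB-231 is a human breast cancer line, and Rab27a is a small GTPase of vesicle secretion. The title and design give its knockdown in these cells for both groups. The growth protocol words the cells as WT MDA-MB-231/Rab27a KD, which is less clear, and the title and design are followed here. In the radiotherapy group (n = 3) the tumour received 10 Gy once it had reached about 800 mm3, and the muscle of the other side of the body was taken 3 days later; in the control group (n = 3) the tumour was not irradiated. Irradiation was local to the tumour. By the title and design, neither group was without a tumour or had a tumour without the knockdown. The labels give no age, and do not say whether the knockdown cells were 1 clone or whether each library stands for a mouse of its own, and p-values therefore refer only to the spread among these libraries.

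Endothelial cells form the inner wall of every vessel and, in skeletal muscle, mostly the capillaries that run along the fibres. They hold together through VE-cadherin and claudin-5 at their junctions. Signals for growth and survival reach them as VEGF, through the receptors encoded by Kdr and Flt1, and as angiopoietins, through the receptor pair encoded by Tek and Tie1. Factors of the ETS family, such as ERG and FLI1, are known regulators of many endothelial genes.

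None of the 10 endothelial markers passed limma, a linear model that shares variance estimates across genes, at an adjusted p of 0.05 between radiotherapy and control muscle, and for none of them did the 3 radiotherapy values lie wholly above or below the 3 control values. Over all 11375 genes tested, 0% passed the adjusted threshold and 9.24% had groups that did not overlap. The summed level of the 10 genes was 213, 189 and 270 TPM in radiotherapy libraries 1, 2 and 3, against 246, 198 and 159 TPM in control libraries 1, 2 and 3. Egfl7 made up 29.8 to 39.6% of this sum and Pecam1 18.1 to 22.95%, so the sum follows these genes most. TPM is a length-corrected share of all transcripts in a library, so levels can be compared between genes. The group means were 224 ± 41.9 TPM after radiotherapy and 201 ± 43.7 TPM in control (SD, n = 3 each), a ratio of 1.12 that is smaller than the spread within each group. The summed level was highest in radiotherapy 3 and control 1, and lowest in control 3. No difference was called here. In whole muscle, a change in the number of endothelial cells and a change in endothelial RNA per cell could not be told apart.

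The median log2 fold change of the 10 genes, radiotherapy minus control on the log2(TPM + 1) scale, was 0.044, beside −0.11 for all genes tested. The values of 3 of the 10, Pecam1, Tie1 and Vwf, were below 0, as were those of 67.9% of all genes tested. The median of the 10 was positive under each of the other scalings tried. It was 0.14 after median-of-ratios scaling, 0.19 after quantile normalization and 0.17 with mitochondrial genes removed. The same scalings also moved the median of all genes tested, to −0.037, −0.018 and −0.0071 in that order. The median of the 10 turned negative without radiotherapy 3 (−0.080) and without control 3 (−0.094). The log2 fold changes of Pecam1, Cdh5, Kdr, Flt1, Tek and Tie1 lay between −0.14, for Tie1, and 0.12, for Kdr. For 7 of the 10 genes the 95% interval lay wholly within 1 log2 unit of 0, that is within a doubling or halving of TPM + 1. The share of all genes tested with such an interval was not counted, so this does not set the markers apart. At an unadjusted p under 0.05 limma called 0 of the 10, against 3.82% of all genes tested.

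**Figure D1:**
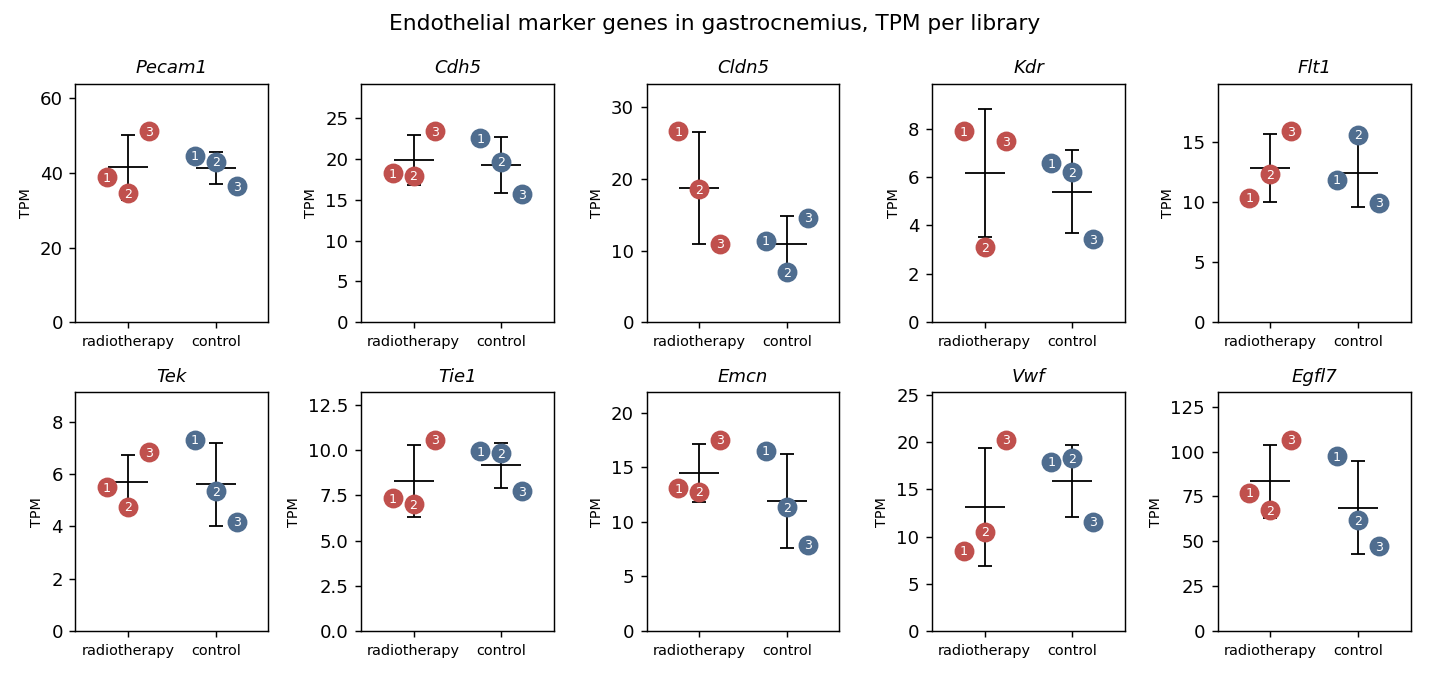
TPM (vertical axes, each from 0) of the 10 endothelial markers in the 3 radiotherapy and 3 control libraries; numbers in the points are the replicate numbers, and the black bars are the group mean ± SD. The groups overlap in all 10 panels, and radiotherapy 3 is the highest library for 7 of the genes.

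Of the junction and adhesion genes, Pecam1 and Cdh5 had nearly equal group means and Cldn5 had not. Pecam1, which encodes the adhesion molecule CD31 of endothelial cells, platelets and leukocytes, was at 38.8, 34.5 and 51.2 TPM in radiotherapy 1, 2 and 3, against 44.5, 42.9 and 36.4 TPM in control 1, 2 and 3. The highest and the lowest library were both of the radiotherapy group. Its log2 fold change was −0.0070 (95% interval −0.56 to 0.54, limma adjusted p = 0.999), and this sign turned positive under all 3 other scalings. Cdh5, which encodes VE-cadherin, the adhesion protein of endothelial junctions, was at 18.3, 18.0 and 23.4 TPM in radiotherapy 1, 2 and 3, against 22.5, 19.7 and 15.7 TPM in control 1, 2 and 3. The radiotherapy values lay within 1 TPM of the range spanned by the controls (log2 fold change 0.044, 95% interval −0.51 to 0.60, limma adjusted p = 0.991). The ratio of Cdh5 to Pecam1 ran from 0.431 to 0.521, a 1.21-fold range, beside 1.48-fold for Pecam1 and 1.49-fold for Cdh5 alone. Both were highest in radiotherapy 3, but Pecam1 was lowest in radiotherapy 2 and Cdh5 in control 3.

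Cldn5, which encodes the tight junction protein claudin-5, was at 26.7, 18.6 and 10.9 TPM in radiotherapy 1, 2 and 3, against 11.4, 6.95 and 14.6 TPM in control 1, 2 and 3. Radiotherapy 1 and 2 lay above every control, while radiotherapy 3 lay below control 1 and control 3. The group means were 18.7 ± 7.87 TPM after radiotherapy and 10.97 ± 3.84 TPM in control (SD, n = 3 each). Its log2 fold change, 0.69, was the largest in size of the 10 (95% interval −0.14 to 1.52, limma adjusted p = 0.978), and it did not pass. The value ranged from 0.41 without radiotherapy 1 to 1.01 without radiotherapy 3, where the limma adjusted p was 0.507.

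The VEGF receptors differed in how steady they were. Kdr, which encodes VEGFR2, the main signalling receptor for VEGF-A, was at 7.89, 3.10 and 7.47 TPM in radiotherapy 1, 2 and 3, against 6.57, 6.19 and 3.43 TPM in control 1, 2 and 3. Its lowest libraries were radiotherapy 2 and control 3, 1 of each group, and the groups overlapped (log2 fold change 0.12, 95% interval −0.69 to 0.93, limma adjusted p = 0.990). Flt1, which encodes VEGFR1, a receptor that binds VEGF-A tightly and limits its supply to VEGFR2, was at 10.4, 12.3 and 15.9 TPM in radiotherapy 1, 2 and 3, against 11.9, 15.6 and 9.95 TPM in control 1, 2 and 3. Its log2 fold change was 0.044 (95% interval −0.56 to 0.65, limma adjusted p = 0.991). Kdr was below Flt1 in all 6 libraries, but the ratio of Kdr to Flt1 was 0.761, 0.252 and 0.470 in radiotherapy 1, 2 and 3, against 0.554, 0.397 and 0.345 in control 1, 2 and 3. The ratio thus varied more within the radiotherapy group than between the groups.

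The angiopoietin receptor pair was steadier. Tek, which encodes TIE2, the receptor for angiopoietins, was at 5.49, 4.74 and 6.83 TPM in radiotherapy 1, 2 and 3, against 7.30, 5.34 and 4.17 TPM in control 1, 2 and 3. The controls spanned the radiotherapy values from both sides (log2 fold change 0.034, 95% interval −0.56 to 0.63, limma adjusted p = 0.992). Tie1, an orphan receptor that pairs with TIE2 and modulates it, was at 7.33, 7.0 and 10.6 TPM in radiotherapy 1, 2 and 3, against 9.95, 9.82 and 7.73 TPM in control 1, 2 and 3. Radiotherapy 1 and 2 were its lowest libraries and radiotherapy 3 its highest (log2 fold change −0.14, 95% interval −0.71 to 0.42, limma adjusted p = 0.980). The ratio of Tek to Tie1 stayed between 0.540 and 0.749 over the 6 libraries.

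Among the surface and secreted markers, Emcn and Egfl7 had positive values and Vwf a negative one, all within the spread of the libraries. Emcn, which encodes the sialomucin endomucin of capillary and venous endothelium, was at 13.1, 12.7 and 17.5 TPM in radiotherapy 1, 2 and 3, against 16.5, 11.3 and 7.91 TPM in control 1, 2 and 3. The log2 fold change was 0.30 (95% interval −0.38 to 0.97, limma adjusted p = 0.978), and it was 0.058 when control 3, the lowest library, was left out. Vwf, which encodes the von Willebrand factor that binds platelets at an injured wall, was at 8.52, 10.5 and 20.2 TPM in radiotherapy 1, 2 and 3, against 17.9, 18.3 and 11.5 TPM in control 1, 2 and 3. Radiotherapy 1 and 2 lay below every control and radiotherapy 3 above every control (log2 fold change −0.32, 95% interval −1.10 to 0.45, limma adjusted p = 0.978). Without radiotherapy 3 the value was −0.66, and without radiotherapy 1 it was −0.085.

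Egfl7, which encodes a secreted protein that endothelial cells lay down around growing vessels, was the most abundant of the 10. It was at 76.9, 67.3 and 106 TPM in radiotherapy 1, 2 and 3, against 97.4, 61.7 and 47.2 TPM in control 1, 2 and 3. The controls held the lowest pair of libraries and the second highest (log2 fold change 0.31, 95% interval −0.39 to 1.02, limma adjusted p = 0.978). Without control 3 its value was 0.079. The gene overlaps Agpat2 on the other strand in the GENCODE M21 annotation, a gene at 1.75 to 6.48 TPM here. It also overlaps the protein-coding gene Gm20532 on the same strand, listed at 0 in all 6 libraries. Reads in these overlaps cannot be assigned with certainty. Egfl7 also hosts the microRNA miR-126. Its precursor Mir126a was listed at 0 in all 6 libraries, which does not show that miR-126 was absent. Its mature form, shown because Egfl7 carries both products, has the following sequence in RefSeq (GRCm38.p6, chr2:26591402-26591423, + strand), with the seed, bases 2 to 8, in capitals.
mmu-miR-126a-3p: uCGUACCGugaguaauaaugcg

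**Figure D2:**
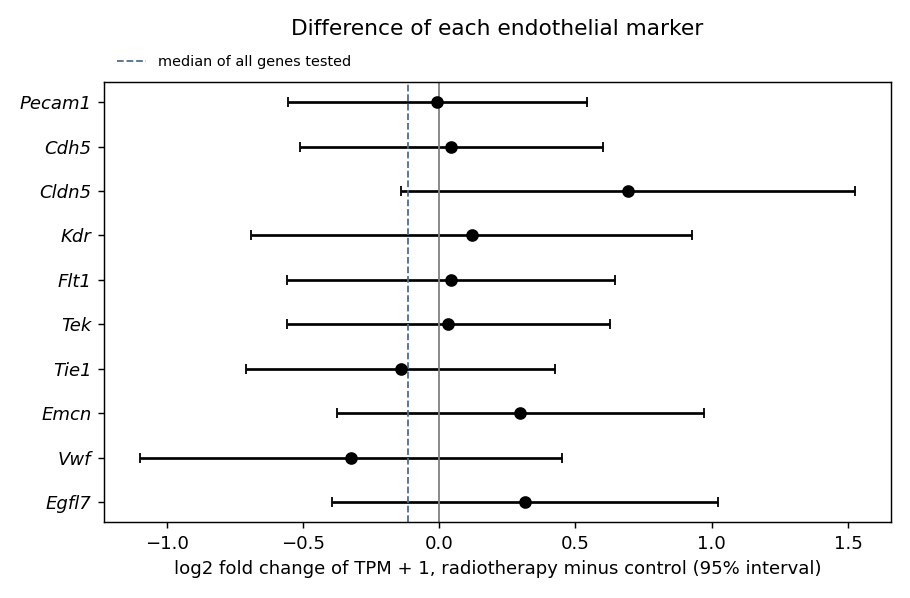
Log2 fold change of TPM + 1, radiotherapy minus control (horizontal axis), of each endothelial marker with its 95% interval from limma; the dashed line is the median of all genes tested (−0.11). All 10 intervals cross 0, and that of Cldn5 reaches furthest, from −0.14 to 1.52.

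The order of the levels was led by Egfl7 and Pecam1. Over the 6 libraries Egfl7 averaged 76.2 TPM, Pecam1 41.4 TPM and Cdh5 19.6 TPM, and each was above the next of these in all 6 libraries. Cldn5 at 14.9 TPM, Vwf at 14.5 TPM, Emcn at 13.2 TPM and Flt1 at 12.7 TPM had no fixed order: neighbours among them changed places in 2 or 3 of the 6 libraries, and Cldn5 was above Cdh5 in radiotherapy 1 and 2. Flt1 was above Tie1, at 8.73 TPM, in all 6 libraries. Tie1 was above Kdr, at 5.78 TPM, in 5 of 6, and Kdr and Tek, at 5.64 TPM, changed places in 3. The levels of Pecam1 and Cdh5 varied least, with a highest library 1.48 and 1.49 times the lowest, and that of Cldn5 most, at 3.84 times. The SD between libraries of a group, on the log2 scale, ran from 0.23 for Pecam1 and Cdh5 to 0.56 for Cldn5, with a median of 0.34 over the 10 genes, beside 0.31 for all genes tested.

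The same libraries were high or low for most of the markers. Radiotherapy 3 was highest for 7 of the 10 genes and among the highest 2 libraries for 9, and control 1 was among the highest 2 for 6. Control 3 was lowest for 5 and radiotherapy 2 for 3. The number of all genes at 1 TPM or more was also highest in radiotherapy 3 (11866) and control 1 (11650). It was lowest in radiotherapy 2 (10890) and control 3 (10902). The part of such a library-wide difference in the marker values was not tested. The mean of the 9 genes other than Cldn5, each centred on its own 6-library mean of log2(TPM + 1), was −0.080, −0.22 and 0.36 in radiotherapy 1, 2 and 3, against 0.23, 0.069 and −0.37 in control 1, 2 and 3. The spread within each group was thus larger than the difference between the groups. Cldn5 ran another way, at 0.92, 0.42 and −0.30 in radiotherapy 1, 2 and 3, against −0.24, −0.88 and 0.089 in control 1, 2 and 3. It was above its own mean in radiotherapy 1 and 2 and control 3, where the other markers averaged below theirs, and below it in the other 3 libraries, where they averaged above. The root mean square difference of a gene's centred values from the mean of the other 9 was 0.73 for Cldn5, against 0.39 for Vwf, the next, and 0.061 for Cdh5, the closest. The ratio of Cldn5 to Cdh5 was 1.46, 1.03 and 0.467 in radiotherapy 1, 2 and 3, against 0.504, 0.353 and 0.929 in control 1, 2 and 3. This departure of Cldn5 was noticed after the values were seen and was given no test.

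**Figure D3:**
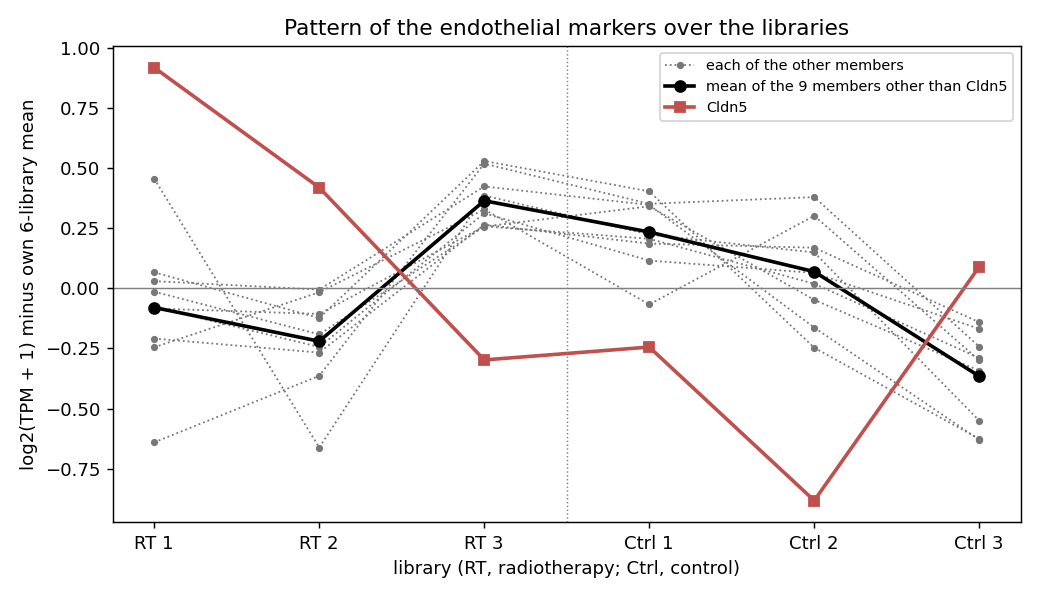
Log2(TPM + 1) of each endothelial marker minus its own mean over the 6 libraries (vertical axis), by library; lines join the points of a gene only to let it be followed. Cldn5 (red squares) is at 0.92 in radiotherapy 1 and −0.88 in control 2, while the mean of the other 9 genes (black) peaks at 0.36 in radiotherapy 3 and is least, −0.37, in control 3.

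Promoter windows from RefSeq (GRCm38.p6, 250 bases before to 50 bases after a transcript start, 300 bases in all) were found for 7 of the 10 genes, in 9 windows. They were searched on both strands for CCGGAA and CAGGAA, short forms of the site that ETS factors bind. One or the other was present in 6 of the 9 windows, against 41.4% of 32851 promoter windows in the table. The windows of Tek, Tie1, Emcn and Kdr and 2 of the 3 of Egfl7 held a match, and those of Flt1 and Cldn5 and the other one of Egfl7 did not. The SOX form ACAATG and the FOX form GTAAACA, searched in the same way, were in 0 of the 9 windows, against 12.6% and 3.65% of all windows. The TATA form TATAAA was in 1, that of Flt1, against 13.6% of all. The windows of Tek and Tie1, a receptor pair, are shown with that of Cldn5, a choice made with the levels known. Whether a match went with the level pattern was not tested. The root mean square difference from the other 9 was 0.077 for Tek, 0.17 for Tie1, 0.19 for Emcn and 0.33 for Kdr, whose windows held a match. It was 0.23 for Flt1 and 0.73 for Cldn5, whose windows did not. Egfl7, with windows of both kinds, had 0.225. Capitals mark CCGGAA or CAGGAA on either strand. A match is no evidence of binding, and a window without one says nothing of sites elsewhere. Tek lies at chr4:94739039-94739338 (+ strand), Tie1 at chr4:118489800-118490099 (− strand) and Cldn5 at chr16:18776597-18776896 (+ strand), each printed in the direction of transcription.
Tek: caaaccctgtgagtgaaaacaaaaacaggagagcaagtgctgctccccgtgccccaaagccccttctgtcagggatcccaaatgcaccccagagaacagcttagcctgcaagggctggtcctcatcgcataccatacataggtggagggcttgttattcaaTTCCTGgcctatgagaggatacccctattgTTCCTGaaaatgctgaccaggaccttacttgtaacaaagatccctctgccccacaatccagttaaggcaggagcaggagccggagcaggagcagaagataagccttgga
Tie1: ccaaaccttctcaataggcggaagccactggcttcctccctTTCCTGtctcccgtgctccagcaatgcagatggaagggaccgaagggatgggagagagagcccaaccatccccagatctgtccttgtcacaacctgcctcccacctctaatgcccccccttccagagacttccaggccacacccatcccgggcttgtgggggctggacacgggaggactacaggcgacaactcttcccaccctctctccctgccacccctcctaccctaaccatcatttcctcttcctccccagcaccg
Cldn5: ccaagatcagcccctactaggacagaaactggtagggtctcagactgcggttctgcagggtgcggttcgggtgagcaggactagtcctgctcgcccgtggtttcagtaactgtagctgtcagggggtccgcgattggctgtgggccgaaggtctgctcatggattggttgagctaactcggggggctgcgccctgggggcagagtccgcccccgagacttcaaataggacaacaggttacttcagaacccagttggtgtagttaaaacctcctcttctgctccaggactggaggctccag

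Of the genes that act on or beside these receptors, none passed the adjusted threshold. Groups did not overlap for 1 of the 10 tested, beside 9.24% of all genes tested. This was Angpt2, whose levels were near the 1 TPM filter. Of 12 ligands, co-receptors and related genes of the VEGF and angiopoietin systems 10 were tested, and 0 passed limma at an adjusted p of 0.05 (median log2 fold change 0.14, beside −0.11 for all genes tested, and −0.042 for the list without radiotherapy 3). Vegfa, the main ligand of VEGFR2, which muscle fibres make, was at 85.9, 79.3 and 187 TPM in radiotherapy 1, 2 and 3, against 82.5, 137 and 51.8 TPM in control 1, 2 and 3. Its highest library was radiotherapy 3 and its lowest control 3, as for the summed endothelial markers (log2 fold change 0.37, 95% interval −0.58 to 1.33, limma adjusted p = 0.979). Angpt2, the angiopoietin that endothelial cells store and release when activated, was at 2.40, 1.6 and 2.38 TPM in radiotherapy 1, 2 and 3, against 1.47, 1.42 and 1.29 TPM in control 1, 2 and 3. All its radiotherapy values lay above the control values, as they did for 1.7% of all genes tested, and it did not pass (log2 fold change 0.38, 95% interval −0.088 to 0.84, limma adjusted p = 0.978). Angpt1, the ligand that activates TIE2, had a log2 fold change of 0.0051 (95% interval −0.81 to 0.82). The other 7 had values between −0.16, for the co-receptor gene Nrp1, and 0.50, for the lipase inhibitor gene Angptl4. Between them lay the ligand genes Pgf at 0.40, Vegfd at 0.25 and Vegfb at −0.053, the lymphatic receptor gene Flt4 at 0.024 and the co-receptor gene Nrp2 at −0.074. Vegfc and Apln were under the filter.

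Wider lists of endothelial genes gave 0 genes past the adjusted threshold. Of 26 tested junction and surface genes, 18 had negative values, beside 67.9% of all genes tested. Their median was −0.098, beside −0.11 for all genes. Leaving out 1 library at a time put this median between −0.28 without control 3 and 0.10 without control 1. The 1 gene of them at an unadjusted p under 0.05, where 2.86% of all genes tested were lower, was Aqp1, the water channel of capillary endothelium and red cells, at 220, 238 and 248 TPM in radiotherapy 1, 2 and 3, against 278, 366 and 374 TPM in control 1, 2 and 3. It was also the 1 gene of the list whose groups did not overlap, as radiotherapy lay wholly below control for 7.54% of all genes tested (log2 fold change −0.52, 95% interval −1.0 to −0.036, limma adjusted p = 0.978). The summed red blood cell markers were also lower, at 1618, 930 and 1520 TPM in radiotherapy 1, 2 and 3, against 4179, 7204 and 3353 TPM in control 1, 2 and 3. All 5 tested had groups that did not overlap, again lower after radiotherapy, 0 of them past the adjusted threshold. The globin gene Hba-a2 had a log2 fold change of −2.18, the globin gene Hbb-bt −1.90 and the haem synthesis gene Alas2 −1.68, and their part in the Aqp1 values was not tested. The phosphatase gene Ptprb, whose product acts on TIE2, had a value of −0.39 and the junction gene Rasip1 −0.27. Of 15 tested transcription factors 10 were negative, beside 67.9% of all genes tested. Elk3 was at 0.48, Gata2 at −0.38 and Sox7 at −0.38, and the median of the list was −0.12. The sign of that median turned with single libraries, between −0.34 without control 3 and 0.085 without radiotherapy 2. The 10 muscle capillary genes had a median of 0.055, which lay between −0.088 without control 2 and 0.19 without radiotherapy 2. Among them Gpihbp1, the capillary anchor of lipoprotein lipase, had −0.33, Timp4 −0.36 and the fatty acid carrier gene Fabp4 0.33. Of 12 tested arterial and Notch genes 8 were negative, beside 67.9% of all genes tested. Their median of −0.26 lay between −0.45 without radiotherapy 3 and −0.055 without radiotherapy 2. With control 1 and radiotherapy 2 both left out it was 0.040. The named genes of this list were the ligand genes Jag1 and Jag2 at −0.33 each and the connexin gene Gja5 at −0.44.

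Of 9 tested venous and activation genes, which again include Vwf, 5 were negative, beside 67.9% of all genes tested. Single libraries stood far apart in this list. Its median of −0.060 was −0.42 without radiotherapy 3 and 0.17 without radiotherapy 2. The list's summed level was 64.9, 71.3 and 181 TPM in radiotherapy 1, 2 and 3, against 107, 108 and 72.2 TPM in control 1, 2 and 3, and radiotherapy 3 was highest for 8 of the 10. Selp, which encodes the P-selectin that captures leukocytes on activated endothelium and is stored with von Willebrand factor, was at 5.11, 8.29 and 33.8 TPM in radiotherapy 1, 2 and 3, against 9.10, 8.45 and 3.07 TPM in control 1, 2 and 3. Radiotherapy 3 stood above all other libraries, while radiotherapy 1 and 2 lay within the range of the controls (log2 fold change 0.78, 95% interval −0.60 to 2.17, limma adjusted p = 0.978). Il6st, which encodes the shared receptor subunit of the interleukin-6 family, had −0.34 (95% interval −0.93 to 0.26). Of 8 lymphatic markers 4 passed the filter, and Prox1, at 0.12 to 0.2 TPM, did not. Of the 4, Flt4, Lyve1 and Pdpn lay near the filter, at 2.14 TPM or less in every library. The median log2 fold change of the 4 was 0.21, or 0.035 without control 3 and 0.41 without control 1. All 4 values were above 0. Ccl21a, a lymphatic chemokine, had the largest of these values, 0.78, with its highest level, 29.7 TPM, in radiotherapy 2, while Lyve1 and Pdpn had 0.24 and 0.17.

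**Figure D4:**
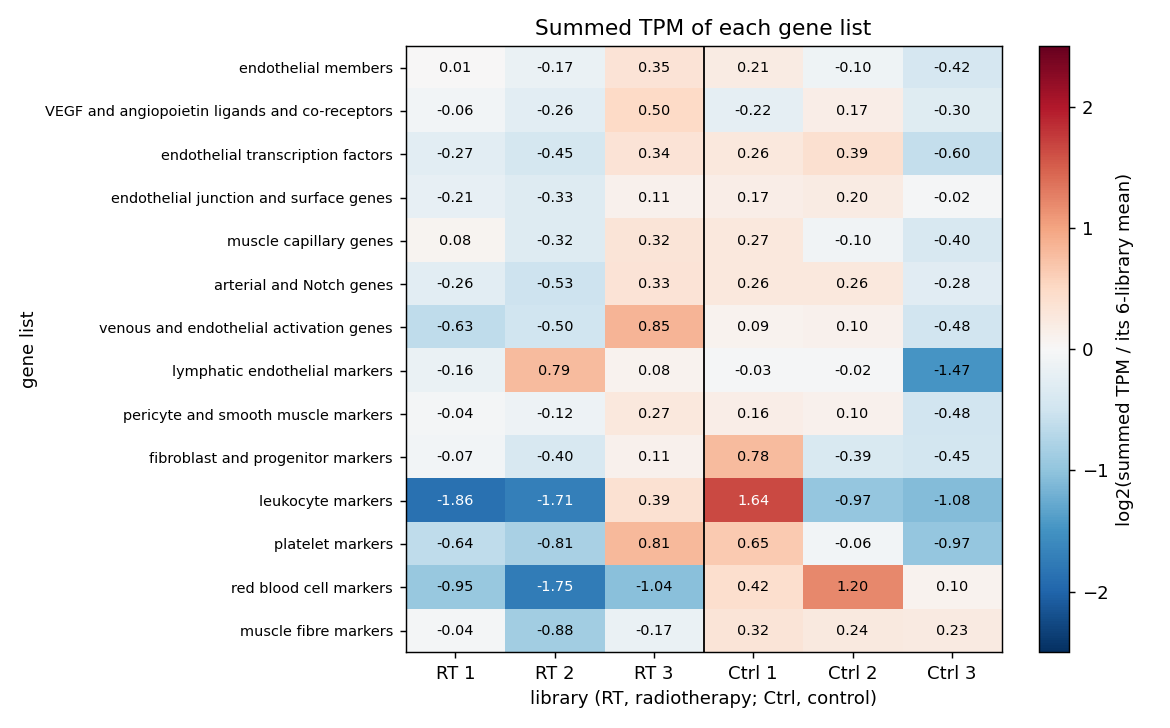
Summed TPM of each gene list in each library as log2 of its ratio to the list's 6-library mean (colour and printed value); RT is radiotherapy and Ctrl is control. The endothelial markers span −0.42 in control 3 to 0.35 in radiotherapy 3, the leukocyte markers −1.86 in radiotherapy 1 to 1.64 in control 1.

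Markers of other cell types moved with the libraries too, and their part in the endothelial values was not tested. The 10 muscle fibre markers, which check the tissue, summed to 56078 to 99856 TPM in the radiotherapy libraries and 120323 to 128019 TPM in the controls. Of these, 6 had groups that did not overlap, lower after radiotherapy as for 7.54% of all genes tested, and 0 passed the adjusted threshold. The fast fibre and actin genes with the smallest p were Acta1 at −0.91, Atp2a1 at −0.69 and Mylpf at −0.49. The other direction was seen for 3 of the 10, the myosin heavy chain genes Myh7 at 0.66, Myh2 at 0.61 and Myh1 at 0.54, which were named after their values were seen and whose groups overlapped. Pericyte and smooth muscle markers, of the cells that wrap the vessels, summed to 168, 159 and 209 TPM in radiotherapy 1, 2 and 3, against 193, 185 and 124 TPM in control 1, 2 and 3, so they were highest and lowest in the same libraries as the endothelial sum. Among the 12 of them Cnn1, a smooth muscle calponin gene, was the 1 with groups that did not overlap, higher as for 1.7% of all genes tested, and the 1 higher at an unadjusted p under 0.05 as were 0.967% of all genes tested (log2 fold change 0.79, limma adjusted p = 0.978), beside 0.44 for Myh11 and −0.43 for Kcnj8. Leukocyte markers summed to 174, 193 and 828 TPM in radiotherapy 1, 2 and 3, against 1976, 322 and 298 TPM in control 1, 2 and 3, and control 1 was highest for all 15. The leukocyte genes S100a9, S100a8 and Cd52 had log2 fold changes of −1.0, −1.0 and −1.25, with intervals across 0. Control 1 decided the direction of the list, whose median was −0.59 with all libraries and 0.15 without it. Platelet markers, of cells that also carry Pecam1 and Vwf products, summed to 4.90 to 16.9 TPM and were highest in radiotherapy 3 and control 1. Of the platelet markers Pf4 had a value of 0.053 and Itga2b −0.32, and the other 6 of 8 were under the filter. Fibroblast markers summed to 383 to 545 TPM in the radiotherapy libraries and 370 to 871 TPM in the controls (Dpt −0.44, Lum −0.35, Mfap5 0.28). No marker of these lists was at 0 in all libraries. Transcripts of the mitochondrial genome took 18.9, 22.5 and 15.1% of TPM in radiotherapy 1, 2 and 3, against 10.4, 13.7 and 8.93% in control 1, 2 and 3, and a larger share there leaves less TPM for all other genes.

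The 5 genes whose pattern over the 6 libraries was most like the mean pattern of the 10 markers were Golga1, Lhfp, Rubcn, Adprhl1 and Ets2, with root mean square differences from 0.036 to 0.058 on the log2 scale. The closest, Golga1, was at 3.87, 3.40 and 4.84 TPM in radiotherapy 1, 2 and 3, against 4.40, 3.69 and 3.08 TPM in control 1, 2 and 3. Of 11365 tested genes outside the list, 16.8% were within 0.21 of the mean pattern, the median distance of a marker from the other 9. A gene at the same level in all 6 libraries would also lie within that distance. The share therefore does not measure likeness to the markers.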

How the data were processed

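Gene expression was measured by RNA sequencing in 3 radiotherapy and 3 control libraries, built with a TruSeq kit (per the labels' protocols). Their values came as TPM in 1 table that the authors deposited, a column for each library. HISAT2, StringTie, RSEM and the build mm9 are named in the submitters' processing notes, without versions or roles. Sources used here give neither the annotation release nor the strandedness. TPM sums to 1000000 in each library, so depth was unknown and no counting interval could be given. Genes that reached 1 TPM in 3 or more of the 6 libraries were tested with limma 3.58.1 in R 4.3.3 (mean-variance trend, two-sided, group as the only term) on log2(TPM + 1), which understates changes of low genes; p-values were adjusted by Benjamini-Hochberg over all 11375 genes, with a threshold of 0.05. Intervals are 95% intervals of this fit. The script was tested on simulated data. The members and 13 other gene lists (167 distinct genes with the members, 144 tested) were chosen with earlier results of these data known. Lists were described by counts and medians. The named genes were all members, the tested ligand and co-receptor genes, up to 3 genes of smallest p from each other list, and the 5 genes nearest the members' mean pattern, leaving out predicted and clone-named genes. Alternatives were another pseudocount (0.1), filter (none, 5 TPM), scaling or variance model, a replicate block and libraries left out. Promoter and microRNA sequences are from RefSeq tables of GRCm38.p6, which is not the build of the files. Plots came from Python 3.11.15 and matplotlib 3.10.9.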

Additional observations from a re-analysis of the deposited data

How the results depend on the processing

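No endothelial marker passed limma's adjusted threshold under any of 16 alternatives (lowest adjusted p 0.507), and of 160 values of single markers 142 kept their direction. Values under the other filters, the other variance models or the replicate block could not turn, because these leave each fold change as it was. For the 18 that turned, the cause was not tested. The value of Pecam1, −0.0070 in the fit of all libraries, was 0.089 after median-of-ratios scaling, 0.15 after quantile normalization, and 0.12 with mitochondrial genes removed. With 1 library left out at a time it ranged from −0.16 to 0.11, that of Cdh5 from −0.090 to 0.16, Kdr from −0.13 to 0.48, Flt1 from −0.11 to 0.21 and Tek from −0.13 to 0.21; these last 4 were negative without radiotherapy 3 and without control 3, and Kdr also without radiotherapy 1. With control 1 and radiotherapy 2 both left out, Pecam1 was at 0.17, Tie1 at 0.014 and the median of the 10 markers at 0.27. Leaving out 1 library at a time gave that median a range of −0.094 to 0.18. Over all genes 0 passed in the fit of all 6 libraries, where 435 were at an unadjusted p under 0.05, against 916 without radiotherapy 3, 200 without radiotherapy 2 and 862 with no filter. Between 0 and 1 passed with 1 library left out, and 8 with control 1 and radiotherapy 2 left out; 0 of these were markers. At an unadjusted p under 0.05 limma called Cldn5 and Vwf without radiotherapy 3, Cldn5 without control 3 and Egfl7 without control 1 and radiotherapy 2. Same-numbered libraries did not deviate together (r across genes −0.059, 0.024 and −0.11 for replicates 1, 2 and 3). With so few libraries these values cannot exclude a pairing. With the replicate number as a block, 0 of the 10 markers passed. In this balanced design the block cannot change a fold change, so the median of 0.044 was fixed in advance. Depth was unknown, so the precision of the lowest genes could not be judged from counts.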
